A study of Homo sapiens with 12 samples.

Results

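The chromobox (CBX) genes described here are *CBX1*, *CBX2*, *CBX3*, *CBX6*, *CBX7* and *CBX8*, 6 of the 45416 genes listed for these libraries. They were chosen by gene name as 2 heterochromatin protein 1 (HP1) genes and 4 Polycomb genes, and *CBX1* was picked because its level rose with both siRNAs against *PD-L1*. The values that chose *CBX1*, its comparisons of either siRNA with the control siRNA, are therefore given as a description without a test. RNA was sequenced from U251 cells, an established human glioblastoma line, in 12 libraries that fall into 6 groups of 2. Cells received a control siRNA (siNC, labelled wild type) or 1 of 2 siRNAs against *PD-L1* (siPDL1-1 and siPDL1-2, labelled *PD-L1* knockdown), and from 48 h after transfection they were left unstimulated or were given interferon gamma (IFNγ, 100 U/ml) for 24 h. All groups were transfected, and untransfected cells were not among the 12 libraries, so a change made by siPDL1-1 or siPDL1-2 and an opposite change made by siNC cannot be told apart in a comparison with siNC. The same 2 siNC libraries entered the comparison of each siRNA at a given stimulation.

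CBX proteins bind methylated histone tails through a chromodomain. *CBX1* encodes HP1β and *CBX3* encodes HP1γ, which read methylated lysine 9 of histone H3 (H3K9) at silenced chromatin, and HP1γ is also found along transcribed genes. *CBX2*, *CBX6*, *CBX7* and *CBX8* encode alternative subunits of the canonical Polycomb repressive complex 1 (PRC1), which reads trimethylated lysine 27 of H3 (H3K27me3), a mark deposited by PRC2, and holds developmental genes such as the *HOX* clusters silent. Both readers have been studied in glioblastoma cells because Polycomb and heterochromatin proteins affect cell identity and growth.

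Values are deposited normalized CPM, read counts scaled by library size, and the libraries held between 17101069 and 55657393 reads on genes, so that 1 read was worth 0.0187 to 0.0586 CPM. *CD274*, the gene of PD-L1, averaged 4.76 CPM in unstimulated siNC cells, 2.70 with siPDL1-1 and 3.51 with siPDL1-2, and after IFNγ it averaged 73.6, 63.8 and 36.3 CPM, respectively. It was lower with siPDL1-1 in unstimulated cells (log2 fold change -0.64 ± 0.08 SE) and with siPDL1-2 after IFNγ (-1.001 ± 0.07 SE). With siPDL1-2 in unstimulated cells it was lower by less than 1.5-fold (-0.35 ± 0.08 SE, limma adjusted p = 0.00183). After IFNγ the difference of siPDL1-1 from siNC was -0.20 ± 0.07 SE (limma adjusted p = 0.0604). The 8 glioblastoma line markers summed to between 3995 and 4920 CPM in every library, with *VIM* between 3139 and 3968 CPM, while *GFAP* was between 1.92 and 7.25 CPM and *OLIG2* at or below 0.359 CPM. Leukocyte markers summed to between 0.0490 and 0.812 CPM, epithelial markers to between 0.0586 and 0.187 CPM, endothelial markers to between 2.01 and 5.63 CPM and neuron markers to between 2.02 and 3.95 CPM. The endothelial sums were lower in every library given IFNγ (2.01 to 3.25 CPM) than in any unstimulated one (3.86 to 5.63 CPM), and their part in the responses to IFNγ was not tested.

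The HP1 pair is printed first because reads of such close relatives could be confused. The coding sequences of *CBX1* (555 bases without the stop codon) and *CBX3* (549 bases) were identical at 71.1% of 522 aligned bases. The 150-base stretch in which they were most alike lies near the start of the coding sequence, where the chromodomain of HP1 proteins is, at coding positions 54 to 203 of *CBX1* and 81 to 230 of *CBX3*. Capitals mark the 37 bases at which the stretches differ.

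CBX1: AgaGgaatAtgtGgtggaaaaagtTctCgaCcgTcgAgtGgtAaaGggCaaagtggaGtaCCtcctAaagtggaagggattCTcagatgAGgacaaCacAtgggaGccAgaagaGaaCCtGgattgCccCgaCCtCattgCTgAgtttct

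CBX3: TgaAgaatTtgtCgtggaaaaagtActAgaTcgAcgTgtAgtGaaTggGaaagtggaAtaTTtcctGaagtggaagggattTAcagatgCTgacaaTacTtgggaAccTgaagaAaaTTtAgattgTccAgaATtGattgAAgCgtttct

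The longest run shared by the 2 stretches was 14 bases. No run of 100 bases in the canonical transcripts of *CBX1*, *CBX2*, *CBX6* or *CBX8* was found in a transcript of another gene of the GENCODE annotation. For *CBX3*, 2.497% of such runs were shared with the pseudogene *CBX3P9*, and for *CBX7* 27.9% were shared with an antisense gene, *AL031846.2*, that overlaps it and averaged 2.57 CPM against 24.9 CPM for *CBX7*. Reads were counted on both strands, so reads of *CBX7* and *AL031846.2* cannot be told apart where they overlap.

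4 of the genes lie in 2 neighbouring pairs in GRCh38. *CBX2* (ENSG00000173894, chr17:79778148-79787983, plus strand) and *CBX8* (ENSG00000141570, chr17:79792132-79801683, minus strand) are 4149 bases apart, and *CBX6* (ENSG00000183741, chr22:38861422-38872249) and *CBX7* (ENSG00000100307, chr22:39120167-39152680), both on the minus strand, are separated by 247918 bases and 11 listed genes. *CBX3* (ENSG00000122565, chr7:26201162-26213607, plus strand) overlaps *HNRNPA2B1* on the other strand. *CBX1* (ENSG00000108468) occupies chr17:48070052-48101478 on the minus strand.

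Per length, *CBX3* was the most abundant of the 6 genes. In unstimulated siNC cells its level was 108 CPM per kilobase of the canonical transcript, followed by *CBX6* (22.4), *CBX1* (22.03), *CBX2* (9.94), *CBX7* (6.96) and *CBX8* (4.05). Per length, the libraries of *CBX6* and *CBX1* overlapped. Over the 12 libraries the highest level of *CBX1* was 3.09 times its lowest level, while this ratio was 1.64 for *CBX3* and between 1.35 and 1.46 for the 4 Polycomb genes. The fewest reads behind a value were 231 for *CBX8* and 366 for *CBX7*.

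**Figure D1:**
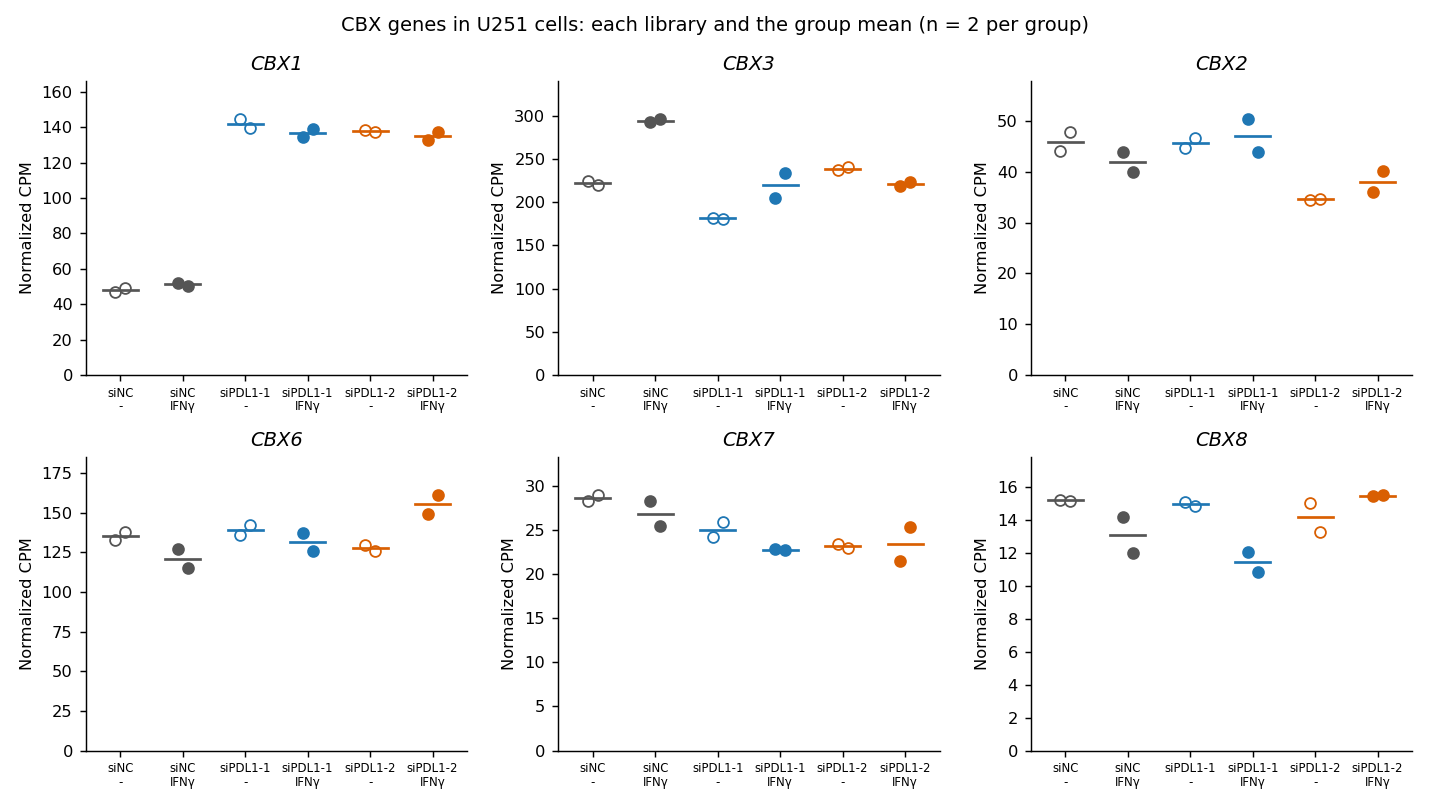
Normalized CPM (vertical axes, from 0) of the 6 CBX genes in each library, with unstimulated cells as open points, IFNγ as filled points and group means as lines (n = 2 per group). *CBX1* lies between 46.8 and 52.2 CPM in the 4 siNC libraries and between 133 and 145 CPM in the 8 libraries with siPDL1-1 or siPDL1-2, while *CBX3* is highest in siNC cells given IFNγ.

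*CBX1* was present at a low level with siNC and at a 2.60- to 2.92-fold higher level (of CPM plus 1) with either siRNA against *PD-L1*. In unstimulated cells the siNC libraries measured 46.8 and 49.4 CPM, the siPDL1-1 libraries 145 and 139.5 CPM and the siPDL1-2 libraries 138 and 138 CPM. After IFNγ the corresponding values were 52.2 and 50.6 CPM, 134 and 139 CPM, and 133 and 138 CPM. The siNC libraries did not overlap with the others under either condition. As a description of what chose this gene, the log2 fold changes (of CPM plus 1) against siNC were 1.54 ± 0.05 SE for siPDL1-1 and 1.502 ± 0.05 SE for siPDL1-2 in unstimulated cells, and 1.40 ± 0.06 SE and 1.38 ± 0.06 SE after IFNγ.

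The other comparisons of *CBX1* gave small differences. Those between siPDL1-1 and siPDL1-2 are made of the values that chose *CBX1*, so they are a description without a test. Between siPDL1-1 and siPDL1-2 the log2 difference was 0.04 ± 0.05 SE in unstimulated cells and 0.02 ± 0.06 SE after IFNγ. The response of *CBX1* to IFNγ was 0.09, -0.05 and -0.03 in siNC, siPDL1-1 and siPDL1-2 cells (limma adjusted p = 0.125, 0.399 and 0.676). None of these responses to IFNγ passed the test with 2 libraries per group.

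*CBX3* went the other way from *CBX1* in 3 of the 4 comparisons with siNC and was the CBX gene with the largest response to IFNγ in siNC cells. It measured 224 and 219 CPM in unstimulated siNC cells and 293 and 296 CPM after IFNγ. With siPDL1-1 it measured 182 and 181 CPM unstimulated and 205 and 234 CPM after IFNγ. With siPDL1-2 the values were 237 and 241 CPM unstimulated and 219 and 223 CPM after IFNγ. The 2 siNC libraries given IFNγ stood above all other libraries, and the 2 unstimulated siPDL1-1 libraries below them.

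*CBX3* rose with IFNγ in siNC cells by 0.41 ± 0.05 SE on the log2 scale (limma adjusted p = 1.47e-05) and in siPDL1-1 cells by 0.27 ± 0.05 SE (adjusted p = 6.94e-04), both less than 1.5-fold. The latter was 0.0125 when only the 4 siPDL1-1 libraries were fitted. In siPDL1-2 cells the difference with IFNγ was -0.11 ± 0.05 SE (adjusted p = 0.118). The siPDL1-2 effect on *CBX3* differed between stimulated and unstimulated cells by -0.52 ± 0.07 SE (adjusted p = 1.59e-04), and this test passed under all 19 alternatives. For siPDL1-1 the same difference was -0.13 ± 0.07 SE (adjusted p = 0.396).

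Against siNC, *CBX3* was lower with siPDL1-1 in unstimulated cells (-0.29 ± 0.05 SE, limma adjusted p = 5.11e-04) and after IFNγ (-0.42 ± 0.07 SE, adjusted p = 8.91e-04), and with siPDL1-2 after IFNγ (-0.41 ± 0.07 SE, adjusted p = 0.00201). In unstimulated cells siPDL1-2 gave 0.11 ± 0.05 SE (adjusted p = 0.110, and 0.00517 when only the 4 libraries compared were fitted), and the direct comparison of siPDL1-1 with siPDL1-2 gave -0.40 ± 0.05 SE (adjusted p = 3.78e-05). After IFNγ the siRNAs differed by -0.01 (95% confidence interval -0.16 to 0.13, adjusted p = 0.916). For *CBX3*, the unstimulated siPDL1-1 call was lost without siNC replicate 1 (adjusted p = 0.0103), and the siPDL1-2 call after IFNγ without siPDL1-2 IFNγ replicate 1 (0.0312) or 2 (0.0307).

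*HNRNPA2B1*, an RNA-binding protein gene whose start overlaps that of *CBX3* on the other strand, averaged 868 CPM. It was lower in the same 3 comparisons: by -0.37 ± 0.06 SE with siPDL1-1 in unstimulated cells (limma adjusted p = 2.01e-04), -0.39 ± 0.07 SE with siPDL1-1 after IFNγ (adjusted p = 0.00217) and -0.32 ± 0.07 SE with siPDL1-2 after IFNγ (adjusted p = 0.00975). In unstimulated cells siPDL1-2 gave *HNRNPA2B1* -0.17 (adjusted p = 0.0269). The siPDL1-1 result of *HNRNPA2B1* after IFNγ was lost without siPDL1-1 IFNγ replicate 1 (0.0104), and that of siPDL1-2 without siNC IFNγ replicate 2 (0.0438) or siPDL1-2 IFNγ replicate 1 (0.0664) or 2 (0.0825), and at 0.0104 in edgeR. Whether reads counted on both strands link the values of *HNRNPA2B1* and *CBX3* was not tested. *NFE2L3*, the nearest gene on the lower side of *CBX3*, rose with IFNγ in all 3 siRNA groups (log2 fold changes of 0.78, 0.88 and 0.67). *SNX10*, 78255 bases from *CBX3* on the other side, had log2 values of 0.83 (siPDL1-1) and 1.33 (siPDL1-2) against siNC in unstimulated cells. Their limma adjusted p-values were 1.35e-05 and 1.25e-07. After IFNγ the values of *SNX10* were 0.46 and 0.41 (adjusted p = 0.0115 and 0.0241). *SNX11*, 1879 bases from *CBX1*, was lower with siPDL1-2 in unstimulated cells (-0.27 ± 0.07 SE, adjusted p = 0.00628), with values of -0.22, -0.10 and -0.13 for siPDL1-1 unstimulated, siPDL1-1 after IFNγ and siPDL1-2 after IFNγ, against values of 1.38 to 1.54 for *CBX1*. The *SNX11* call was lost without any 1 of the 6 unstimulated libraries, with adjusted p-values between 0.0107 (without siPDL1-1 replicate 2) and 0.0748 (without siPDL1-2 replicate 2).

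Among the Polycomb genes, *CBX2* was lower with siPDL1-2 than with siPDL1-1 or siNC in unstimulated cells. It measured 44.1 and 47.9 CPM in unstimulated siNC cells, 44.7 and 46.6 CPM with siPDL1-1 and 34.5 and 34.7 CPM with siPDL1-2. After IFNγ the values were 43.99 and 40.05 CPM with siNC, 50.4 and 43.9 CPM with siPDL1-1, and 36.0 and 40.1 CPM with siPDL1-2. The unstimulated siPDL1-2 libraries lay below all 10 other libraries. *CBX2* fell with siPDL1-2 against siNC by 0.40 ± 0.07 SE on the log2 scale (limma adjusted p = 6.09e-04), less than 1.5-fold, and was higher with siPDL1-1 than with siPDL1-2 by 0.39 ± 0.07 SE (adjusted p = 9.61e-04). The first call was lost without siNC unstimulated replicate 2 (adjusted p = 0.0136), and the second without siPDL1-1 unstimulated replicate 2 (0.0161) or siPDL1-2 unstimulated replicate 1 (0.0110) or 2 (0.0108). After IFNγ *CBX2* differed from siNC by 0.16 with siPDL1-1 and -0.14 with siPDL1-2 (adjusted p = 0.202 and 0.286), and IFNγ itself gave -0.13, 0.04 and 0.13 in siNC, siPDL1-1 and siPDL1-2 cells (adjusted p = 0.200, 0.702 and 0.211).

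Its neighbour *CBX8* was the least abundant of the 6. It measured 15.2 and 15.2 CPM in unstimulated siNC cells, 15.1 and 14.9 CPM with siPDL1-1 and 15.1 and 13.3 CPM with siPDL1-2. After IFNγ it measured 14.2 and 12.0 CPM, 12.1 and 10.9 CPM, and 15.5 and 15.5 CPM, so that the siPDL1-1 and siPDL1-2 libraries did not overlap. *CBX8* fell with IFNγ in siPDL1-1 cells by 0.36 ± 0.09 SE on the log2 scale (limma adjusted p = 0.00561), less than 1.5-fold. This call was lost without siPDL1-1 unstimulated replicate 1 (adjusted p = 0.0460) or 2 (0.0337) or siPDL1-1 IFNγ replicate 2 (0.0519). The other responses of *CBX8* to IFNγ were -0.20 and 0.12 in siNC and siPDL1-2 cells (adjusted p = 0.0859 and 0.332). After IFNγ *CBX8* differed between siPDL1-1 and siPDL1-2 by -0.41 ± 0.10 SE (adjusted p = 0.0283), and no comparison of *CBX8* with siNC passed (log2 values between -0.17 and 0.23).

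*CBX6* was highest in siPDL1-2 cells given IFNγ. The unstimulated siNC libraries measured 133 and 138 CPM, those of siPDL1-1 136 and 142 CPM and those of siPDL1-2 129 and 126 CPM. The libraries given IFNγ measured, in the same order, 127 and 115 CPM, 137 and 126 CPM, and 149 and 161 CPM. The siPDL1-2 libraries given IFNγ stood above the other 10. *CBX6* rose with IFNγ in siPDL1-2 cells by 0.28 ± 0.06 SE on the log2 scale (limma adjusted p = 0.00202), and it was higher with siPDL1-2 than with siNC after IFNγ by 0.36 ± 0.07 SE (adjusted p = 0.00590), both less than 1.5-fold. The siPDL1-2 effect on *CBX6* differed between stimulated and unstimulated cells by 0.44 ± 0.08 SE (adjusted p = 0.00106), and this test passed under all 19 alternatives.

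The 2 calls of *CBX6* within one condition were less stable. The response to IFNγ was lost without siPDL1-2 unstimulated replicate 1 (limma adjusted p = 0.0135) or 2 (0.0303) or siPDL1-2 IFNγ replicate 2 (0.0335). The difference from siNC was lost without siNC IFNγ replicate 2 (0.0374) or siPDL1-2 IFNγ replicate 1 (0.0293) or 2 (0.0775), with no filter on low reads (0.0119) and with the replicate block (0.0103). In siNC cells IFNγ gave *CBX6* a value of -0.16 ± 0.06 SE (adjusted p = 0.0357), which was -0.20 with an adjusted p of 0.00480 in DESeq2. With siPDL1-1 the response to IFNγ was -0.08 (adjusted p = 0.324). *NPTXR*, a pentraxin receptor gene 17394 bases from *CBX6*, was higher with both siRNAs in both conditions, by 0.72 with siPDL1-1 and 0.58 with siPDL1-2 in unstimulated cells and by 0.72 and 0.60 after IFNγ, where *CBX6* had values of 0.04, -0.08, 0.12 and 0.36. The first siPDL1-2 value was less than 1.5-fold, and the *NPTXR* call for siPDL1-2 after IFNγ was lost without siPDL1-2 IFNγ replicate 1 or 2.

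*CBX7* was highest in unstimulated siNC cells, at 28.3 and 28.9 CPM. In the other unstimulated cells it measured 24.1 and 25.8 CPM with siPDL1-1 and 23.3 and 23.0 CPM with siPDL1-2. The libraries given IFNγ measured 28.2 and 25.4 CPM (siNC), 22.8 and 22.7 CPM (siPDL1-1) and 21.5 and 25.3 CPM (siPDL1-2). The siNC libraries lay above those of siPDL1-1 and siPDL1-2 in both conditions. *CBX7* fell with siPDL1-2 in unstimulated cells by 0.29 ± 0.08 SE on the log2 scale (limma adjusted p = 0.00678), less than 1.5-fold. The other 3 comparisons with siNC gave values between -0.23 and -0.19 (adjusted p = 0.0805, 0.0956 and 0.160). The *CBX7* call was lost without any 1 of the 6 unstimulated libraries and with no filter on low reads. Of 19 alternatives, 12 kept it. No response of *CBX7* to IFNγ passed, with log2 values of -0.09, -0.13 and 0.01 in siNC, siPDL1-1 and siPDL1-2 cells. *PDGFB*, 70679 bases from *CBX7*, was higher with siPDL1-2 than with siNC after IFNγ by 0.86 ± 0.11 SE (limma adjusted p = 5.74e-04). With IFNγ *PDGFB* changed by -0.75, -1.01 and 0.23 in the same 3 siRNA groups (adjusted p = 1.31e-05, 6.25e-07 and 0.0819).

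**Figure D2:**
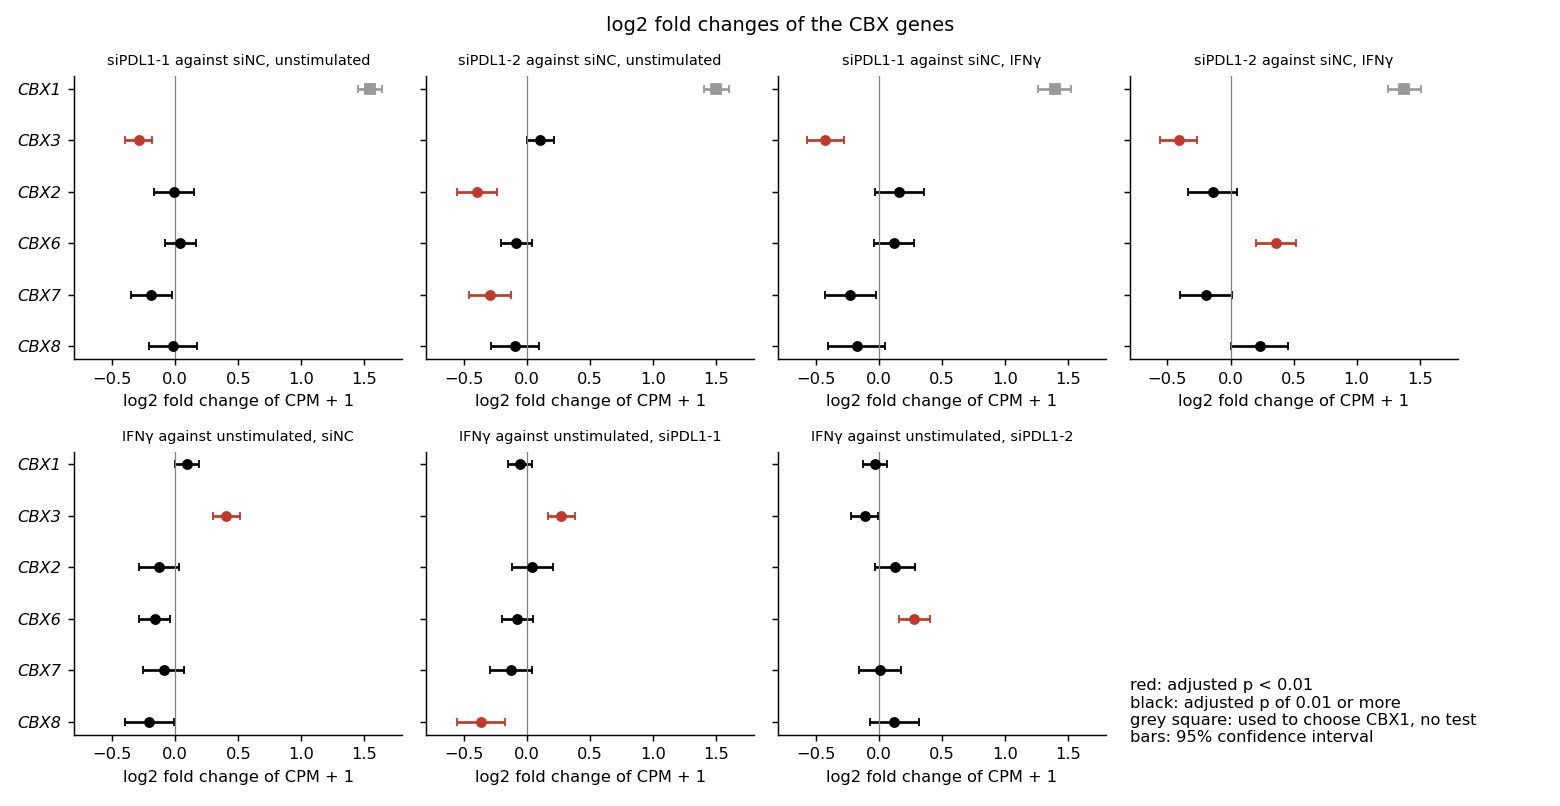
log2 fold change of CPM plus 1 (horizontal axes) of each CBX gene for both siRNAs against siNC and for IFNγ against unstimulated cells, as points with 95% confidence intervals. *CBX1* against siNC is drawn as grey squares without a test, and red points are those with an adjusted p under 0.01, the largest in size being -0.42 for *CBX3* with siPDL1-1 after IFNγ.

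Under the rule of an adjusted p under 0.01 and a fold change over 1.5, limma called 0 of the other 5 CBX genes in the 4 comparisons with siNC, and edgeR and DESeq2 also called 0. Of all genes tested, 4.00% were called with siPDL1-1 and 6.17% with siPDL1-2 in unstimulated cells, and 5.52% and 2.91% after IFNγ. With no fold threshold, 1 of 5 passed with siPDL1-1 in unstimulated cells (all genes 18.8%), 2 of 5 with siPDL1-2 (28.4%), 1 of 5 with siPDL1-1 after IFNγ (15.7%) and 2 of 5 with siPDL1-2 after IFNγ (9.67%). An unadjusted p under 0.05 was reached by 2, 2, 2 and 3 of the 5 genes. Of all genes it was reached by 6996 and 8663 of 17982 in unstimulated cells, and by 6784 and 6147 of 17148 after IFNγ. With so few genes these shares cannot be set apart from those of all genes, and the comparisons share their siNC libraries.

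In the next 5 comparisons limma, edgeR and DESeq2 again called 0 CBX genes at a fold change over 1.5. *CBX1* was left out of those between the siRNAs, which are made of the values that chose it. All 6 genes were counted for IFNγ. Between siPDL1-1 and siPDL1-2 all genes were called at 4.35% in unstimulated cells and 2.11% after IFNγ. With no fold threshold 2 of 5 CBX genes passed in unstimulated cells (all genes 24.1%) and 0 of 5 after IFNγ (4.84%). At an unadjusted p under 0.05 the counts were 3 and 3 (all genes 8039 of 17982 and 4494 of 17148). After IFNγ edgeR and DESeq2 passed 0 with no fold threshold. For IFNγ against unstimulated cells, all genes were called at 8.12% with siNC, 6.87% with siPDL1-1 and 5.27% with siPDL1-2, and with no fold threshold 1 of 6 (27.3%), 2 of 6 (22.9%) and 1 of 6 (17.1%) CBX genes passed. Unadjusted p-values under 0.05 were reached by 3, 2 and 2 of the CBX genes, and by 8310, 7640 and 7114 of all 17982 genes.

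The siPDL1-1 effect differed after IFNγ for 0.968% of all genes at a fold change over 1.5 and 1.63% with no fold threshold, and for 0 of the 5 CBX genes other than *CBX1* under either rule, with 0 at an unadjusted p under 0.05 and 0 by edgeR and DESeq2. *CBX1* is left out here because this difference is made of the values that chose it. The siPDL1-2 effect differed for 7.62% and 17.1% of all genes, and for 0 and 2 of the same 5 genes, the latter being *CBX3* and *CBX6*. An unadjusted p under 0.05 was reached by 4 of the 5 there. Of all 17982 genes, 7127 reached it for siPDL1-2 and 2786 for siPDL1-1.

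The 6 genes did not vary together over the 12 libraries. As a description, Pearson's r of log2 CPM plus 1 over the 12 libraries, which share siNC, siRNA and IFNγ groups, was -0.81 between *CBX1* and *CBX7*, -0.56 between *CBX1* and *CBX3*, -0.59 between *CBX3* and *CBX6*, and 0.61 between *CBX6* and *CBX8*. The neighbours *CBX2* and *CBX8* had an r of -0.17, and the neighbours *CBX6* and *CBX7* one of -0.08.

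Genes whose level was correlated with that of *CBX1* over the 12 libraries were sought among 14277 others. The level of *CBX1* differed mostly between siNC and the other libraries, the values that chose it. A gene that steps with both siRNAs therefore has an r near 1 or -1, and these values are a description without a test. *MAPRE1*, which encodes the microtubule plus-end protein EB1, had the highest r (0.995). Its mean level was 62.1 CPM in unstimulated siNC cells and 71.1 CPM after IFNγ, against 161 and 170 CPM with siPDL1-1 and 163 and 166 CPM with siPDL1-2. Next came *LIX1L* (r of 0.987), *SLC31A1* (0.986), a copper transporter gene, *CALU* (0.984), which encodes a calcium-binding protein of the secretory pathway, and *ATP5PB* (0.983), a subunit of ATP synthase. The lowest values were those of *MANBAL* (-0.995), *AHCYL1* (-0.986) and the noncoding RNA gene *GAS5* (-0.984). *MANBAL* averaged 55.3 and 53.6 CPM in siNC cells and between 28.8 and 29.9 CPM in the other groups. No other member of the CBX family was among these genes.

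**Figure D3:**
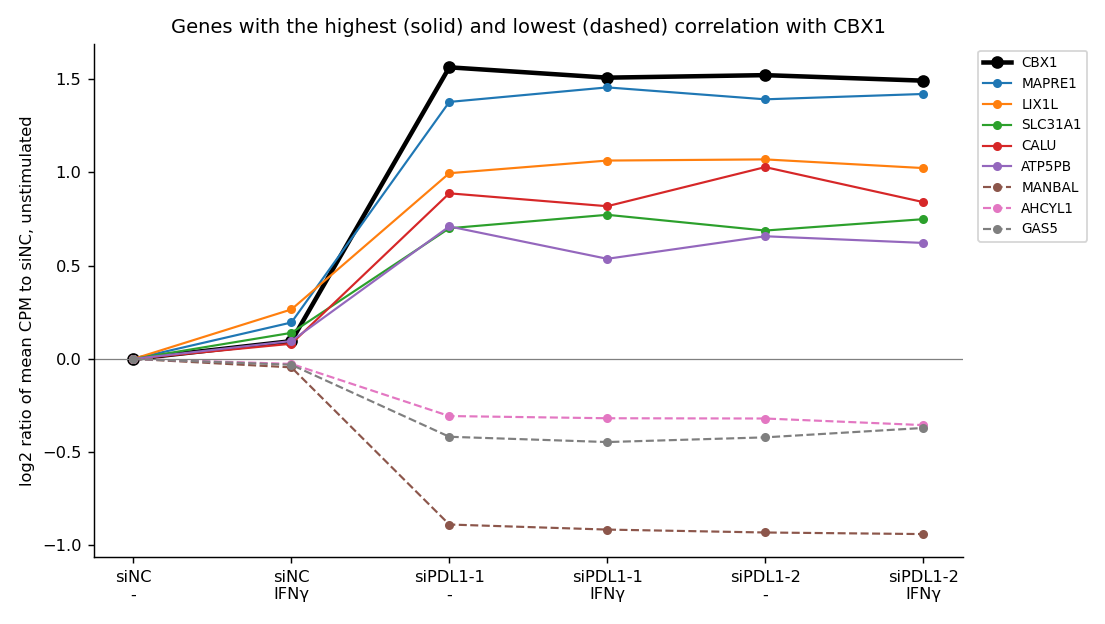
log2 ratio of mean CPM to that of unstimulated siNC cells (vertical axis) in the 6 groups for *CBX1* and the genes with the highest (solid) and lowest (dashed) correlation with it over 12 libraries, with lines joining each gene's points. *MAPRE1* has the highest r with *CBX1* (0.995) and *MANBAL* the lowest (-0.995), a description that rests mostly on the step from siNC that chose *CBX1*.

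For the other CBX genes the most alike were *NAB1* (r of 0.988) and *RASSF8* (0.984) for *CBX3*, *TRAF7* (0.967) and *PPP1R12C* (0.963) for *CBX2*, *OXLD1* (0.939) and *ITPA* (0.937) for *CBX6*, *C2CD2L* (0.950) and *NT5C3B* (0.930) for *CBX7*, and *ZNF251* (0.935) and *DNTTIP1* (0.920) for *CBX8*. *NAB1*, a transcriptional corepressor of early growth response factors, averaged 38.2 CPM in unstimulated siNC cells and 52.2 CPM after IFNγ, while in siPDL1-2 cells it averaged 42.4 and 37.7 CPM, the order seen for *CBX3*.

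Other subunits of PRC1 were called in several of these comparisons. With siPDL1-1 0 of 22 were called higher and 1 lower in unstimulated cells, and 0 and 2 after IFNγ (all genes 4.00% and 5.52%). With siPDL1-2 the counts were 2 and 0, and 0 and 0 (all genes 6.17% and 2.91%). With no fold threshold limma passed 4 higher and 3 lower with siPDL1-1 in unstimulated cells (all genes 18.8%). After IFNγ it passed 3 and 4 (15.7%). With siPDL1-2 it passed 5 and 2 in unstimulated cells (28.4%), and 0 and 5 after IFNγ (9.67%). The siPDL1-2 count after IFNγ was 2 without siNC IFNγ replicate 1, and 1 without siPDL1-2 IFNγ replicate 1, by edgeR and by DESeq2. The 1 with siPDL1-1 in unstimulated cells, *YAF2*, was lost without siNC unstimulated replicate 1. Of the same 22 genes, 4 were called higher and 0 lower with IFNγ in siNC cells, 3 and 0 in siPDL1-1 cells, and 0 and 0 in siPDL1-2 cells, where limma passed 1 higher and 2 lower with no fold threshold. The shares of all genes called were 8.12%, 6.87% and 5.27%, and 17.1% passed in siPDL1-2 cells with no fold threshold. The median log2 change was 0.07, 0.09 and -0.02, against 0.00, -0.02 and -0.01 over all genes. *PCGF5*, a core subunit of a variant PRC1, rose with IFNγ by 1.43 ± 0.13 SE in siNC cells and 1.58 ± 0.13 SE in siPDL1-1 cells. *BMI1*, which pairs with the RING1 ligases in canonical PRC1, rose by 1.21 ± 0.15 SE in siNC cells, and *PHC3*, a Polyhomeotic subunit, by 1.02 ± 0.08 SE in siNC and 0.74 ± 0.08 SE in siPDL1-1 cells. *BMI1* also rose in siPDL1-1 cells (0.83 ± 0.15 SE, adjusted p = 0.00224), a call lost without siPDL1-1 unstimulated replicate 1 (0.0175) or 2 (0.0156), and the change was 0.55 without siPDL1-1 IFNγ replicate 2.

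With siPDL1-2 *BMI1* and *PCGF5* were already higher in unstimulated cells. *BMI1* averaged 29.8, 30.0 and 66.1 CPM in siNC, siPDL1-1 and siPDL1-2 cells, a rise of 1.12 ± 0.15 SE over siNC (limma adjusted p = 3.07e-04). *PCGF5* averaged 44.5, 44.9 and 91.6 CPM, a rise of 1.02 ± 0.13 SE (adjusted p = 3.61e-04). After IFNγ, *BMI1* averaged 70.5 CPM with siNC and 49.6 CPM with siPDL1-2, and the siPDL1-2 effect on it differed between conditions by -1.62 ± 0.21 SE (adjusted p = 6.33e-04). Of the 22 PRC1 genes, 6 were called lower and 0 higher in this test of the difference, where 7.62% of all genes were called, and the count was between 4 and 6 under the alternatives, 4 without siPDL1-2 IFNγ replicate 2.

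*YAF2* and *RYBP*, related subunits of variant PRC1 that do not contain CBX proteins, were lower with siPDL1-1 than with siNC after IFNγ, by -0.74 ± 0.10 SE (limma adjusted p = 3.60e-04) and -0.64 ± 0.08 SE (adjusted p = 2.12e-04). *YAF2* was also lower with siPDL1-1 in unstimulated cells (-0.61 ± 0.09 SE, adjusted p = 1.51e-04), where the change was -0.57 and less than 1.5-fold without siNC unstimulated replicate 1.

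Among 11 PRC2 subunit genes tested of 12 listed, *EZHIP* did not pass the filter on low reads. *SUZ12*, a core subunit, and *MTF2*, an accessory one, rose with siPDL1-2 in unstimulated cells by 0.74 ± 0.07 SE and 0.75 ± 0.09 SE, while *PHF19*, another accessory subunit, fell by 0.71 ± 0.07 SE. With siPDL1-1 in unstimulated cells 0 PRC2 genes were called by limma (2 higher and 2 lower with no fold threshold), and after IFNγ 0 were called with either siRNA (1 higher and 1 lower with siPDL1-1, 0 and 1 with siPDL1-2). Of all genes, 6.17% were called with siPDL1-2 and 4.00% with siPDL1-1 in unstimulated cells, and 2.91% and 5.52% after IFNγ. With no fold threshold these shares were 28.4%, 18.8%, 9.67% and 15.7%. The counts with siPDL1-1 were 1 without siNC unstimulated replicate 1 and, after IFNγ, 1 without siPDL1-1 IFNγ replicate 1. *SUZ12* averaged 51.5 CPM in unstimulated siNC cells, 43.4 CPM with siPDL1-1 and 86.8 CPM with siPDL1-2. The siPDL1-2 effect on *SUZ12* differed after IFNγ by -0.81 ± 0.09 SE (adjusted p = 5.36e-05).

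On the HP1 side, 31 genes of H3K9 methylation and HP1 partners were tested. With siPDL1-2 in unstimulated cells 2 were called higher and 3 lower, and with siPDL1-1 0 and 1. After IFNγ the counts were 0 and 3 with siPDL1-1 and 0 and 0 with siPDL1-2. Of all genes, 6.17%, 4.00%, 5.52% and 2.91% were called in these comparisons. With no fold threshold limma passed, in the same order, 10 higher and 8 lower, 1 and 10, 1 and 3, and 0 and 4. Of all genes 28.4%, 18.8%, 15.7% and 9.67% passed. The unstimulated count of 5 with siPDL1-2 was 3 without siNC replicate 1, and that of 1 with siPDL1-1 (*AURKB*) was 0 without siPDL1-1 replicate 1, 3 with edgeR and 2 with DESeq2. After IFNγ the siPDL1-2 count was 1 without siNC replicate 1. The list medians were 0.04, -0.12, -0.10 and -0.09, against 0.03, 0.02, -0.01 and -0.01 over all genes. *INCENP*, a chromosomal passenger protein that binds HP1, fell with siPDL1-2 in unstimulated cells by 0.66 ± 0.06 SE and with siPDL1-1 after IFNγ by 0.65 ± 0.07 SE. *AURKB*, the kinase of the same complex, changed by -0.59 ± 0.06 SE (siPDL1-1) and -0.65 ± 0.06 SE (siPDL1-2) in unstimulated cells. With siPDL1-1 after IFNγ it fell by 0.64 ± 0.07 SE. Means of *AURKB* were 106, 69.7 and 67.2 CPM in unstimulated siNC, siPDL1-1 and siPDL1-2 cells, and 77.8, 49.6 and 57.0 CPM after IFNγ. Those of *INCENP*, in the same order, were 79.2, 52.8 and 49.7 CPM, and 63.6, 40.2 and 46.6 CPM. *SGO1*, which protects centromere cohesion, fell with siPDL1-1 after IFNγ by 0.73 ± 0.09 SE. *TASOR* rose with siPDL1-2 in unstimulated cells by 0.62 ± 0.05 SE, a call lost without siNC replicate 1. *SMCHD1*, a chromatin protein tied to HP1 at the inactive X chromosome, rose with IFNγ by 0.65 ± 0.06 SE in siNC cells and 1.22 ± 0.06 SE in siPDL1-1 cells. In siPDL1-2 cells *SMCHD1* rose by 0.28, less than 1.5-fold (limma adjusted p = 0.00169). Of the 31 genes, 1 was called with IFNγ in siNC cells (all genes 8.12%), 1 in siPDL1-1 cells (6.87%) and 0 in siPDL1-2 cells (5.27%).

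Of the 11 demethylase genes of H3K9 and H3K27, limma called 0 for either siRNA in unstimulated cells. The shares of all genes called there were 4.00% with siPDL1-1 and 6.17% with siPDL1-2. With no fold threshold 1 demethylase was higher and 1 lower for siPDL1-1 (all genes 18.8%), and 3 and 3 for siPDL1-2 (28.4%). After IFNγ 1 was called higher with siPDL1-1, *KDM7A*, where 5.52% of all genes were called. This call was lost without siNC IFNγ replicate 1 or siPDL1-1 IFNγ replicate 2. With siPDL1-2 after IFNγ 0 demethylases were called (all genes 2.91%), and 0 passed with no fold threshold (9.67%). With IFNγ in siPDL1-1 cells 2 were called higher, where 6.87% of all genes were called. These were *KDM6A*, an H3K27 demethylase, by 0.64 ± 0.07 SE, and *KDM7A* by 0.62 ± 0.08 SE, the latter lost without siPDL1-1 unstimulated replicate 1. In siNC cells *KDM6A* and *KDM7A* also rose, by 0.45 and 0.51, both less than 1.5-fold (limma adjusted p = 2.36e-04 and 1.12e-04). In siPDL1-2 cells their values were 0.20 and -0.16 (adjusted p = 0.0555 and 0.157).

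For the siRNAs against siNC, 4.00% (siPDL1-1) and 6.17% (siPDL1-2) of all genes were called in unstimulated cells, and 5.52% and 2.91% after IFNγ. With no fold threshold these shares were 18.8%, 28.4%, 15.7% and 9.67%. Of 39 *HOX* genes, which canonical PRC1 holds silent in many cells, 33 passed the filter over all 12 libraries and 30 over the 6 stimulated ones. None was called by limma with siPDL1-1 or siPDL1-2 in unstimulated cells, where 1 was higher with each when no fold threshold was set, and 1 was called with each siRNA without siNC unstimulated replicate 1, and 1 with siPDL1-1 without siNC unstimulated replicate 2. After IFNγ 0 were called with siPDL1-1 (1 higher with no fold threshold, and 1 called by edgeR, with the replicate block and with all 12 libraries fitted), and 1 with siPDL1-2, *HOXA7*, by 0.68 ± 0.12 SE, a call lost without siNC IFNγ replicate 1 (adjusted p = 0.0136) or siPDL1-2 IFNγ replicate 1 (0.0321) or 2 (0.0451). With IFNγ 0 *HOX* genes were called higher and 1 lower in siNC cells (all genes 8.12%), 3 and 1 in siPDL1-1 cells (6.87%) and 1 and 1 in siPDL1-2 cells (5.27%). The 1 in siNC cells was 2 without siNC unstimulated replicate 2. The 4 in siPDL1-1 cells fell to 2 without siPDL1-1 unstimulated replicate 1, 1 without unstimulated replicate 2 and 2 without IFNγ replicate 2. The 2 in siPDL1-2 cells fell to 1 without siPDL1-2 unstimulated replicate 1, and to 0 without unstimulated replicate 2 or IFNγ replicate 1. *HOXB9* fell with IFNγ in siNC cells by 0.77 ± 0.06 SE, from a mean of 39.6 to 22.8 CPM, in siPDL1-1 cells by 0.57 and in siPDL1-2 cells by 0.59 ± 0.06 SE, and *HOXD3* rose with IFNγ in siPDL1-1 cells by 1.02 ± 0.16 SE, from 1.52 to 4.11 CPM.

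**Figure D4:**
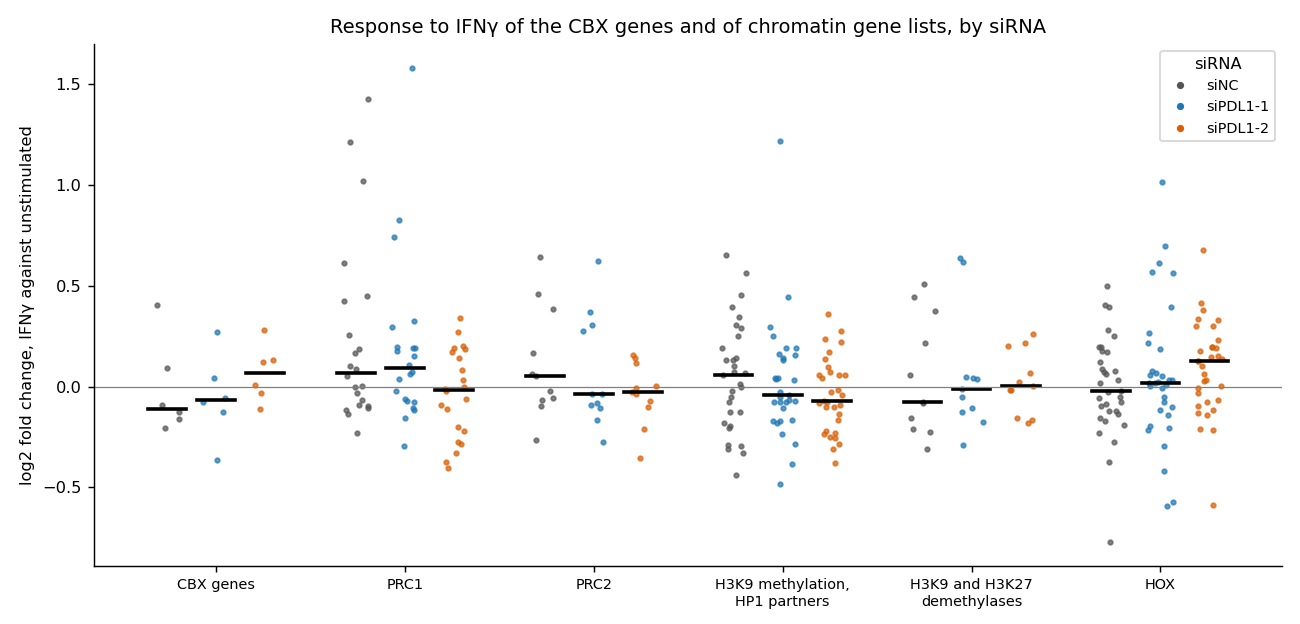
log2 fold change with IFNγ (vertical axis) of each tested gene of the CBX family and of 5 chromatin gene lists, coloured by siRNA, with list medians as black bars. *PCGF5*, at 1.43 in siNC and 1.58 in siPDL1-1 cells, is the highest PRC1 point, and the CBX genes lie between -0.36 and 0.41.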

How the data were processed

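CLC Genomics Workbench was used by the authors for mapping (GRCh38, Ensembl genes) and for counting, with both strands counted and broken pairs ignored, and they deposited normalized CPM values. These signal values, as deposited, were whole multiples of 1 read in 100% of cases (tolerance 0.01 reads), and the recovered reads were used for filtering and for count tests. The methods name TRIzol extraction, 2 independent experiments and a HiSeq system, while the labels name a column kit, stranded mRNA libraries and a NovaSeq system. Nothing else says that the 2 libraries of a group came from separate cultures, and p-values measure the spread between these libraries.

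The groups were taken from the labels, and 0 columns were left unmapped. The members, gene lists and tests were chosen with earlier results of these data known. limma 3.58.1 (R 4.3.3) was run with trend and robust variance estimates on log2 values (pseudocount 1 CPM) after filterByExpr (minimum count 10, minimum total 15), with Benjamini-Hochberg adjustment over all genes tested. Comparisons of siRNAs after IFNγ were fitted on the 6 stimulated libraries (17148 genes), and the other comparisons on all 12 libraries as 6 groups (17982 genes). Genes were called at an adjusted p under 0.01 and a fold change over 1.5. A second rule with no fold threshold was added after seeing the data, and rose or fell is written under it where stated. The ± values are standard errors.

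Named genes were the 6 CBX genes, *CD274*, up to 3 called genes with the largest change per list and comparison, overlapping and neighbouring genes, and the genes most and least alike to *CBX1* or most alike to another member, from those that averaged at least 1 CPM. Alternatives were edgeR 4.0.16, DESeq2 1.42.0, DESeq2's size factors, a pseudocount of 0.1, no filter, a replicate block, other libraries in the fit and leaving out each library. *CBX1* was left out of the counts between siPDL1-1 and siPDL1-2 and for the tests of a changed siRNA effect, which use the values that chose it. All 6 genes had been planned there. The scripts were tested on simulated data. Positions of all 6 genes were the same in GENCODE v44, which supplied transcripts, and in the deposited table. Replicate libraries differed by more than sampling noise (mean chi-square per gene between 1.85 and 7.76). The siRNA sequences are not analysed here. One sequence and the results that rest on it are not reported here.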

Additional observations from a re-analysis of the deposited data

Results flagged for a closer look

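By a test of the difference itself (limma, 12 libraries), the effect of siPDL1-2 against siNC differed between stimulated and unstimulated cells for 2 CBX genes. These were 2 of the 5 CBX genes other than *CBX1*, with no fold threshold, where 17.1% of all genes passed. For *CBX3* the difference was -0.52 on the log2 scale (adjusted p = 1.59e-04), from 0.11 in unstimulated cells to -0.41 after IFNγ. For *CBX6* it was 0.44 (adjusted p = 0.00106), from -0.08 to 0.36. The target gene itself was flagged by the same test, since the siPDL1-2 effect on *CD274* differed by -0.65 (adjusted p = 5.37e-04), and this difference was -0.54 and less than 1.5-fold by DESeq2, and -0.55 by edgeR.

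At a fold change over 1.5, the same test called 6 of 22 PRC1 genes and 3 of 11 PRC2 genes. It called 3 of 31 genes of H3K9 methylation and HP1 partners, 1 of 11 demethylases and 1 of 33 *HOX* genes. Of all genes, 7.62% were called, 330 higher and 1040 lower. Up to 3 called genes with the largest change are named per list. In PRC1 these were *BMI1* (-1.62), *PCGF5* (-1.26) and *PHC3* (-0.84), and the 3 in PRC2 were *SUZ12* (-0.81), *MTF2* (-0.67) and *AEBP2* (-0.60). Among H3K9 methylation genes and HP1 partners they were *SENP7* (-0.65), *ATRX* (-0.65) and *LBR* (-0.59), among demethylases *KDM7A* (-0.67), and among *HOX* genes *HOXC9* (0.87). Adjusted p-values passed 0.01 for *PCGF5* without siNC IFNγ replicate 2 (0.0130) or siPDL1-2 IFNγ replicate 2 (0.0108), and for *MTF2* without siNC unstimulated replicate 2 (0.0106) or siPDL1-2 IFNγ replicate 2 (0.0122). The difference was less than 1.5-fold for *KDM7A* without siPDL1-2 IFNγ replicate 2 (-0.52), and for *LBR* without siNC IFNγ replicate 2 (-0.53), siPDL1-2 unstimulated replicate 2 (-0.55) or siPDL1-2 IFNγ replicate 2 (-0.57), with edgeR (-0.57), with DESeq2 (-0.56) and with its size factors (-0.55). *AEBP2*, *SENP7* and *HOXC9* lost the call in 7, 4 and 6 of the 12 fits without 1 library. Groups of 2 libraries allow no test for outlying samples.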

How the results depend on the processing

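Under every alternative, 0 CBX genes were called at a fold change over 1.5 in any of the 11 comparisons, *CBX1* against siNC not counted. The log2 fold change of *CBX1* against siNC, a description, stayed between 1.35 and 1.58 over the alternatives. With no fold threshold, the number of CBX genes passing was 1 with no filter against 2 for siPDL1-2 against siNC, in unstimulated cells and after IFNγ. In unstimulated cells it was 3 with only the 4 libraries compared, where *CBX3* passed. After IFNγ it was also 1 with the replicate block. It was 2 against 0 for siPDL1-1 against siPDL1-2 after IFNγ when all 12 libraries were fitted. It was 2 against 1 for IFNγ in siNC cells with DESeq2 or DESeq2's size factors. For IFNγ in siPDL1-1 cells, where it was 2, it became 1 with DESeq2, 1 with no filter and 0 with those 4 libraries alone. Leaving out 1 library gave 0 to 1 for siPDL1-1 against siNC and 0 to 2 for siPDL1-2 against siNC in unstimulated cells, 0 to 2 for siPDL1-2 against siNC after IFNγ, 1 to 2 for siPDL1-1 against siPDL1-2 in unstimulated cells, 1 to 2 for IFNγ in siPDL1-1 cells and 0 to 1 for IFNγ in siPDL1-2 cells. The cause of these changes was not tested.

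Some uncalled differences near 0 changed sign when 1 library was left out. These were *CBX2* with siPDL1-1 unstimulated (-0.0680 to 0.0475) and with IFNγ in siPDL1-1 cells (-0.0531 to 0.14), *CBX8* between the siRNAs unstimulated (-0.0047 to 0.17), and between the siRNAs after IFNγ *CBX1* (-0.0092 to 0.0411), *CBX3* (-0.11 to 0.0825) and *CBX7* (-0.14 to 0.0809). *CBX7* also did so for IFNγ in siPDL1-2 cells (-0.10 to 0.12) and for the change of the siPDL1-1 effect (-0.11 to 0.0364, and 0.0040 with DESeq2's size factors) and of the siPDL1-2 effect (-0.0120 to 0.21) with IFNγ. *SNX11* with siPDL1-1 after IFNγ ranged from -0.21 to 0.0022.

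Same-numbered libraries did not deviate together (a correlation over 0.1 in 2 of 15 group pairs, range -0.19 to 0.25), so the numbers were not read as pairs. The replicate block gave *CBX6* with siPDL1-2 after IFNγ an adjusted p of 0.0103 and changed no other call of a CBX gene. Over all genes, 499 were called for siPDL1-2 against siNC after IFNγ, and 172 or 143 without siPDL1-2 IFNγ replicate 1 or 2, which leaves that group with 1 library that is assumed to vary like the others. Those libraries also took siPDL1-1 against siPDL1-2 after IFNγ from 362 to 224 or 213. Every CBX gene had at least 231 reads in each library, and each group had 2 libraries.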
